A study of Mus musculus with 12 samples.

Results

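Matricellular proteins are secreted into the extracellular matrix, where they bind matrix fibres, growth factors and cell surface receptors such as integrins without forming fibres of their own. In the adult heart most of them are kept low and are raised by injury, overload or stretch, and several are products of cardiac fibroblasts. The group followed here has 9 genes. Ctgf and Cyr61 are CCN proteins, Thbs1, Thbs2 and Thbs4 are thrombospondins, Postn (periostin) and Tgfbi are fasciclin-domain proteins that bind collagen and integrins, Spp1 (osteopontin) is a secreted integrin ligand, and Tnc (tenascin C) is a matrix glycoprotein of wounds and development. They were chosen by name: every probe whose gene name equals one of the 9 was taken, out of 34844 gene names on the array. All 9 had a probe, and 7 passed the background filter, among 18021 genes that did. To pass, 3 or more of the 4 arrays in some group had to read a probe well above background. Spp1 and Tnc did not pass.

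Left ventricular RNA of 12 mice aged 6 months was measured, with 1 mouse on each one-colour array and 4 mice per group. The study asked what loss of Nkx2-5, a cardiac homeodomain transcription factor, in embryonic or fetal trabeculae does to the adult ventricle. TrbE10 mice (Nkx2-5∆trab in the labels) come from mothers that received tamoxifen on E10.5 and E11.5, whereas TrbE14 mice (Nkx2-5∆comp) come from mothers that received it on E13.5 and E14.5. Deletion of the floxed Nkx2-5-∆Neo allele was driven by Cx40-creERT2, a tamoxifen-dependent Cre placed in the Cx40 gene, which is active in trabecular myocardium at these stages but also in arterial endothelium and the conduction system, and it leaves other cells of the ventricle with an intact gene. Per the study's methods controls were Nkx2-5-∆Neo fl/fl littermates with Cx40+/+, which carry the floxed allele without Cre, whereas the labels give them as not injected, so the Cx40 allele and, by the labels, tamoxifen also differ between controls and mutants and cannot be told apart from the deletion. The mice were delivered by caesarian section and raised by CD1 foster mothers where their mothers had received tamoxifen. The tissue was the left ventricular wall with the apex and without the septum, in which cells of all types are pooled, so a rise of RNA per cell and a greater number of cells cannot be told apart.

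Nkx2-5 itself had a log2 signal of 11.89 to 12.23 in control hearts, against 11.21 to 11.67 in TrbE10 and 11.12 to 11.63 in TrbE14 hearts, lower in all 8 mutants than in every control (log2 change -0.66, adjusted p = 0.0459, and -0.59, adjusted p = 0.106). Whether its probe lies in the deleted stretch is not given in the sources used here. All 10 cardiomyocyte markers checked were well above background on all 12 arrays. The 75th percentile of the signal ranged from 195 to 250 units and the number of probes well above background from 22885 to 26149. Control and TrbE14 arrays shared 1 slide and 1 scan, and TrbE10 arrays were on another slide with a scan of its own, so TrbE10 and slide cannot be told apart. Y-linked signal, read from the gene Ddx3y alone, was present on 1 control, 2 TrbE10 and 3 TrbE14 arrays.

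None of the 7 measured genes passed the test in any comparison. Postn came nearest: its mean was 2.09-fold control in TrbE10 hearts (95% interval 1.21 to 3.61, n = 4 per group) and 2.08-fold in TrbE14 hearts (1.21 to 3.59), with adjusted p-values of 0.170 and 0.250. Ctgf and Thbs1 had mutant means above control with wide intervals, Cyr61 differed between hearts of 1 group far more than between group means, and Thbs2, Thbs4 and Tgfbi had log2 changes from -0.31 to 0.23. In the same fit 1.93% of genes were called between TrbE10 and control, 0.66% between TrbE14 and control and 0% between the mutants. A gene was called at an adjusted p under 0.05 over all probes kept, by limma. At an unadjusted p under 0.05, 1 of the 7 genes passed in TrbE10 hearts (Postn, with 16.8% of all genes doing so), 2 in TrbE14 hearts (Postn and Ctgf, against 13.9%) and 0 between the mutants (against 5.96%). The median log2 change of the 7 genes was 0.23 in TrbE10 and 0.89 in TrbE14 hearts, beside medians of -0.02 and -0.03 over all genes, and it was -0.16 between the mutants. The TrbE14 median is the value of Cyr61, which had a 95% interval from -0.57 to 2.35.

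**Figure D1:**
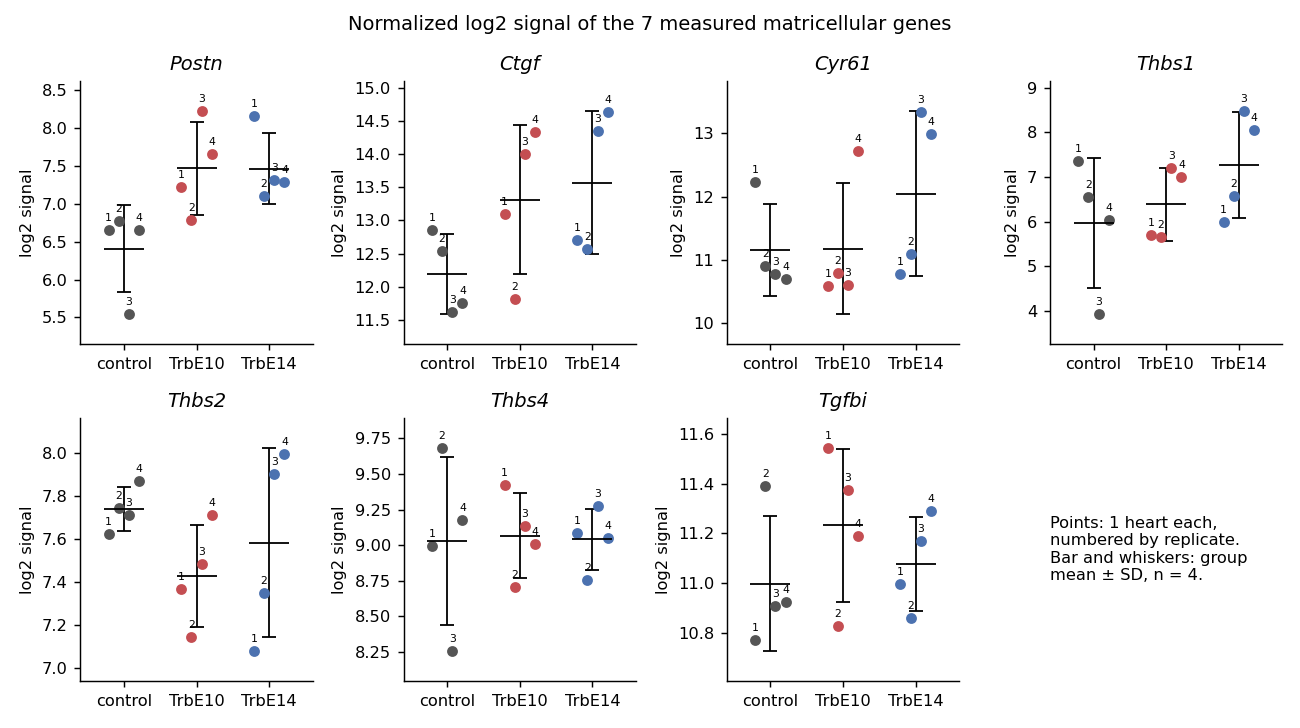
Normalized log2 signal (vertical axes) of the 7 measured genes in each heart of the 3 groups, with replicate numbers beside the points and the group mean ± SD (n = 4) as bar and whiskers. All 8 mutant hearts lie above the 4 control hearts for Postn, by 0.01 at the narrowest, and the groups overlap for the other 6 genes.

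**Figure D2:**
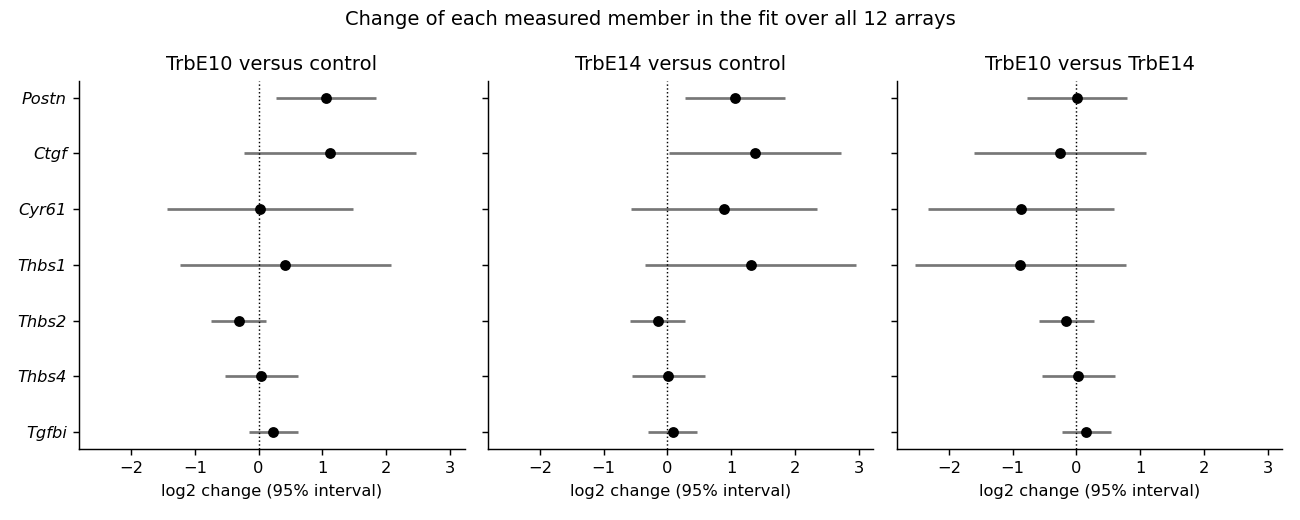
Log2 change of each measured gene with its 95% interval in the fit over all 12 arrays, in 3 panels for TrbE10 versus control, TrbE14 versus control and TrbE10 versus TrbE14. The intervals exclude 0 for Postn in both mutants and for Ctgf in TrbE14 hearts before adjustment, and the widest are those of Thbs1.

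Ctgf (CCN2), a heparin-binding protein that acts with TGF-beta in fibrosis and whose transcription responds to stretch, was read by a probe at chr10:24318281-24318340 (mm9, + strand). Control hearts 1 to 4 had log2 signals of 12.86, 12.54, 11.62 and 11.75. TrbE10 hearts had 13.10, 11.82, 14.00 and 14.33, and TrbE14 hearts 12.71, 12.57, 14.35 and 14.64. In each mutant group 2 hearts, replicates 3 and 4, read 14.00 or more while TrbE10 heart 1, at 13.10, lay just above the highest control and the remaining ones among the controls, so the groups overlapped. The log2 change was 1.12 in TrbE10 hearts (SE 0.61, adjusted p = 0.397) and 1.37 in TrbE14 hearts (SE 0.61, unadjusted p = 0.0470 by limma, adjusted p = 0.361). Between the mutants it was -0.25 (SE 0.61, adjusted p = 0.979).

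Cyr61 (CCN1) is an integrin-binding protein of the same family, transcribed within minutes of growth factor or mechanical stimulation, and its promoter is shown because its signal parted the hearts into separate sets. The probe is at chr3:145310187-145310246 (mm9, - strand). Control hearts read 12.23, 10.91, 10.78 and 10.70, TrbE10 hearts 10.60, 10.80, 10.61 and 12.72, and TrbE14 hearts 10.79, 11.09, 13.33 and 12.99. In 4 hearts (control 1, TrbE10 4, TrbE14 3 and TrbE14 4) the signal was 12.23 or more, in the other 8 it was 11.09 or less, and every group had hearts in both sets. The log2 change was 0.03 in TrbE10 (95% interval -1.43 to 1.48, adjusted p = 0.990) and 0.89 in TrbE14 hearts (-0.57 to 2.35, adjusted p = 0.559), and -0.87 between the mutants (adjusted p = 0.944). These intervals run from 0.37-fold to 2.80-fold of control for TrbE10 and from 0.68-fold to 5.10-fold for TrbE14.

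The 250 bases before the transcription start of Cyr61, listed as Ccn1 in RefSeq (GRCm38.p6, chr3:145649986-145650235, - strand), are printed 5′ to 3′ with matches to the searched motifs in capitals. CATTCC, at positions -103 to -98 from the start, is the TEAD motif GGAATG on the opposite strand, and AAGTG, at -210 to -206, holds the letters of the Nkx2-5 motif.
Cyr61: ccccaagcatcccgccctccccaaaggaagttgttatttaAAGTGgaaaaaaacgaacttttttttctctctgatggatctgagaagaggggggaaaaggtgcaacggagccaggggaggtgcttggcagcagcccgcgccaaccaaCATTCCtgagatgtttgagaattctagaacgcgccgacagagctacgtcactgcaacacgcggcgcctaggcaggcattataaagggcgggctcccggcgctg

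Thbs1, a platelet and matrix glycoprotein that can activate latent TGF-beta, was read at chr2:117952585-117952644 (mm9, + strand). Its log2 signals were 7.35, 6.54, 3.93 and 6.04 in control hearts, 5.70, 5.66, 7.20 and 6.99 in TrbE10 hearts and 5.98, 6.57, 8.47 and 8.05 in TrbE14 hearts. Control heart 3 was not well above background, and the remaining 11 arrays were. TrbE14 hearts 3 and 4 were the only ones above control heart 1, the highest control. The log2 change was 0.42 in TrbE10 (SE 0.75, adjusted p = 0.825) and 1.30 in TrbE14 hearts (SE 0.75, adjusted p = 0.462), and -0.88 between the mutants (adjusted p = 0.946). The TrbE14 value was 0.63 without control heart 3 and 1.77 without control heart 1, and 0.70 with normexp background correction.

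Thbs2, a thrombospondin that restrains angiogenesis and matrix breakdown, was read by a probe that spans a splice junction between chr17:14804526 and 14805789 (mm9, - strand). Control hearts lay close together at 7.62, 7.74, 7.71 and 7.87, TrbE10 hearts at 7.37, 7.14, 7.48 and 7.71, and TrbE14 hearts at 7.08, 7.35, 7.90 and 8.0. It was the only measured gene with a negative log2 change in both mutants, -0.31 (95% interval -0.74 to 0.12, adjusted p = 0.463) and -0.15 (-0.58 to 0.27, adjusted p = 0.739). The SD within control hearts was 0.10, against 0.24 in TrbE10 and 0.44 in TrbE14 hearts. Thbs4, a thrombospondin of tendon and muscle that heart muscle raises under load, was read at chr13:93521565-93521624 (mm9, - strand). Control hearts spanned 8.26 to 9.68, TrbE10 hearts 8.71 to 9.42 and TrbE14 hearts 8.76 to 9.27, all mutants falling inside the control range. Its log2 changes were 0.04 (95% interval -0.53 to 0.61, adjusted p = 0.960) and 0.01 (-0.56 to 0.59, adjusted p = 0.985).

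Postn, a fasciclin-domain protein that cross-links collagen and is secreted by activated fibroblasts and valve cells, was read at chr3:54194840-54194899 (mm9, + strand), well above background on all 12 arrays. Control hearts had log2 signals of 6.66, 6.77, 5.55 and 6.65. TrbE10 hearts had 7.22, 6.78, 8.22 and 7.66, and TrbE14 hearts 8.16, 7.10, 7.31 and 7.29. Every mutant heart read above every control heart, by 0.01 at the narrowest in TrbE10 and by 0.33 in TrbE14. Among all genes 4.94% were higher in all TrbE10 than in all control hearts, and 4.65% in TrbE14. When arrays were scaled to their 75th percentile, corrected by normexp or taken from the authors' normalized values, TrbE10 heart 2 fell below the highest control and 3 of 4 TrbE10 hearts lay above all controls, whereas the TrbE14 hearts stayed above all controls.

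The log2 change of Postn was 1.06 in TrbE10 hearts (SE 0.36, unadjusted p = 0.0123 by limma, adjusted p = 0.170) and 1.06 in TrbE14 hearts (SE 0.36, unadjusted p = 0.0127, adjusted p = 0.250). Control heart 3 was the lowest, and without it the changes were 0.78 and 0.77. With normexp background correction they were 0.64 and 0.72. Between the mutants the log2 change was 0.01 with an interval from -0.78 to 0.79. Tgfbi, the other fasciclin-domain protein and a product of TGF-beta signalling, was read at chr13:56740460-56740519 (mm9, + strand). Control hearts spanned 10.77 to 11.39, TrbE10 hearts 10.83 to 11.54 and TrbE14 hearts 10.86 to 11.29, all overlapping. Its log2 changes were 0.23 (95% interval -0.15 to 0.62, adjusted p = 0.542) and 0.08 (-0.30 to 0.46, adjusted p = 0.858). Between the mutants the log2 changes of Thbs2, Thbs4 and Tgfbi were -0.16, 0.03 and 0.16 (adjusted p = 0.964, 0.995 and 0.963).

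RefSeq lists 2 starts for Postn, and the 250 bases before each are given because Postn is the gene whose groups parted. The first stretch is chr3:54359017-54359266 and the second chr3:54360857-54361106 (GRCm38.p6, + strand). Capitals mark the SMAD motif CAGAC at -191 to -187 from the first start and the Nkx2-5 motif letters AAGTG at -207 to -203 from the second.
Postn, first start: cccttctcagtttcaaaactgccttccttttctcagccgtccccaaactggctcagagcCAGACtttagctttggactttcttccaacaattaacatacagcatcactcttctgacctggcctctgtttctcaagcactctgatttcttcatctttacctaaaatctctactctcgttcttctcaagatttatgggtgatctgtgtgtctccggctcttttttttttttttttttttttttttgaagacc
Postn, second start: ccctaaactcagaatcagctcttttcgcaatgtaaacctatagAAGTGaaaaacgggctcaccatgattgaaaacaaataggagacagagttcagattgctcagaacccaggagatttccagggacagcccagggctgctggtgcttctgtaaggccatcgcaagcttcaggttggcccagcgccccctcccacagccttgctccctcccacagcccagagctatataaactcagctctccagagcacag

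Promoters were found in the RefSeq table for 7 of the 9 genes, with 10 starts in all (Cyr61, Postn, Thbs2, Thbs4, Spp1, Tnc and Tgfbi). The same 250 bases before each start were searched on both strands. TEAD letters were found at 2 of the 10 starts (Cyr61, and Thbs4 with a pair of matches that overlap by 1 base), and 12.6% of all 32851 starts held them. SMAD letters were found at 7 starts (42.2% of all starts) and Nkx2-5 letters at 8 (40.7%). The AP-1 motif TGANTCA (6.75% of all starts) and the CArG box bound by SRF (1.47%) were found at 0. A match describes the letters in this window and not a bound site.

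Spp1 and Tnc stayed at background, well above it on 0 of 12 arrays. Their probes are shown to say which stretch of transcript gave no measurable signal. That of Spp1 lies at chr5:104868502-104868561 (+ strand), the first Tnc probe spans a splice junction between chr4:63674248 and 63675011 (- strand), and the second lies at chr4:63643728-63643787 (- strand), all in mm9. No letter is singled out, so all are in lower case.
Spp1: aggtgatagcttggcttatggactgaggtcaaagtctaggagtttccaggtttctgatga
Tnc, first probe: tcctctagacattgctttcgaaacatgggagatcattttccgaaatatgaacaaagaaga
Tnc, second probe: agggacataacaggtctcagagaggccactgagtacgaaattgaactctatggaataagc

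The lowest signal that counted as well above background ranged from 19.2 to 28.1 units over the arrays. Spp1 signals ran from 4.69 to 21.8 units, the highest in TrbE14 heart 3, where the limit was 24.2. Tnc signals ran from 4.94 to 9.15 units on the first probe and from 5.29 to 14.0 on the second. No fold change is given for either gene, since all groups lay below the limit.

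**Figure D3:**
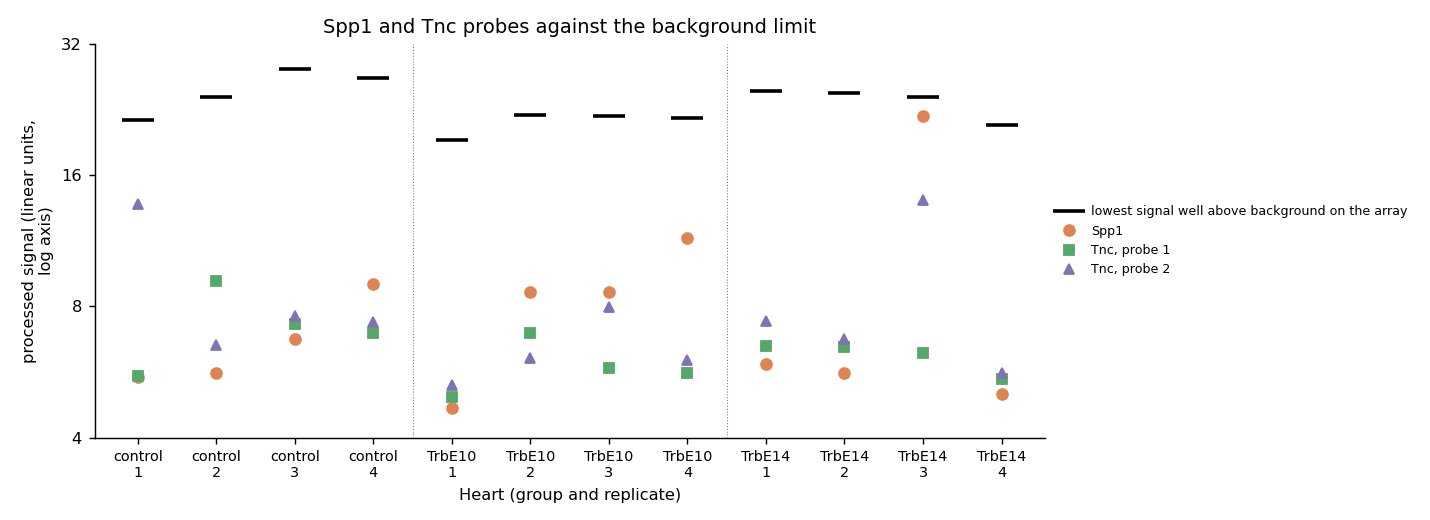
Processed signal (linear units on a log axis) of the Spp1 probe and both Tnc probes in each of the 12 hearts, with a black dash for the lowest signal well above background on the same array. All 36 points lie below their dash, and the nearest is Spp1 in TrbE14 heart 3 at 21.8 units.

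Hearts of 1 group differed in these genes more than in most genes. Pooled over the 3 groups, the SD within groups was 1.18 log2 units for Thbs1, 1.04 for Cyr61, 0.96 for Ctgf and 0.56 for Postn, beside a median of 0.21 over 18021 genes. These SDs were larger than those of 99.2%, 98.7%, 98.3% and 91.5% of genes. Thbs4 (0.40), Thbs2 (0.29) and Tgfbi (0.26) stood above 81.8%, 68.7% and 62.7% of genes.

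Whether the genes varied together among hearts of 1 group was examined from the deviations from the group means, in 15 pairs of the 6 genes other than Cyr61. Cyr61 was left out because its hearts fall into separate sets, and Spp1 and Tnc because they were not measured. The adjustment thus covered fewer pairs than planned. Ctgf and Thbs1 passed by Pearson's r (0.80, exact permutation p = 0.00333 within groups, two-sided, adjusted p = 0.0499 over the 15 pairs) and not by rank (Spearman's rho = 0.80, exact permutation p = 0.00434, adjusted p = 0.0651). Without the 2 arrays farthest from the median of Ctgf, r was 0.85. The call was lost (0 pairs) under scaling to the 75th percentile, under normexp and with the authors' normalized values, and without control heart 1, 2 or 4 or TrbE10 heart 2, 3 or 4, each left out alone. The next pairs were Ctgf with Thbs2 (r = 0.78, rho = 0.84, adjusted p = 0.162 and 0.132 by the exact permutation test) and Thbs4 with Tgfbi (r = 0.72, rho = 0.78, adjusted p = 0.162 and 0.0781). Postn had an r of 0.40 with Ctgf (adjusted p = 0.328, exact permutation).

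The 4 hearts with high Cyr61 were also those with the highest mean level of the immediate-early list, genes such as Fos, Egr1 and Nr4a1 that stimulated cells transcribe first. The mean log2 signal of its 17 measured genes was 9.19 in control heart 1, 9.42 in TrbE10 heart 4, and 9.92 and 9.35 in TrbE14 hearts 3 and 4, and from 7.92 to 8.52 in the other 8. Y-linked signal was present in 4 of these 4 hearts and in 2 of the other 8.

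Correlations of the genes with list means were not in the plan, and Cyr61 was left out of them by the rule on its own values. No result under other scalings or with single arrays left out is given for them. The deviations of Ctgf passed with the immediate-early list mean by rank (rho = 0.88, adjusted p = 0.0495 over 12 relations, exact permutation) and not by Pearson's r (0.85, exact permutation p = 0.00651, adjusted p = 0.0781). The same held for Thbs1 (rho = 0.81, adjusted p = 0.0495, and r = 0.78, adjusted p = 0.0838, exact permutation). Without 2 arrays r was 0.82 and 0.76. Postn did not pass (r = 0.18, rho = 0.22, adjusted p = 0.700 and 0.681 by the exact permutation test). By limma 16.8% and 13.9% of all genes passed an unadjusted p under 0.05 in TrbE10 and TrbE14 hearts. Of the 17 immediate-early genes 0 were called in either mutant (2 and 3 at that unadjusted p). The 2 with the smallest adjusted p were Socs3, a cytokine feedback inhibitor, with log2 changes of 0.86 and 1.02 (adjusted p = 0.207 and 0.214), and the transcription factor Klf4, with -0.68 and -0.59 (adjusted p = 0.161 and 0.284). With the list mean as a covariate, added after the data had been seen, the TrbE14 log2 changes were 0.76 for Ctgf, 0.62 for Thbs1, 0.16 for Cyr61 and 0.98 for Postn, and those of TrbE10 hearts were 0.93 for Ctgf (unadjusted p = 0.0217 by limma, adjusted p = 0.197), 0.21 for Thbs1, -0.20 for Cyr61 and 1.04 for Postn (adjusted p = 0.178). Of 11 clock genes 0 were called (0 also at an unadjusted p under 0.05); Bhlhe41 had 0.57 and 0.78 and Nr1d1, the gene of REV-ERB alpha, 0.0042 in TrbE10 and 0.71 in TrbE14 hearts.

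**Figure D4:**
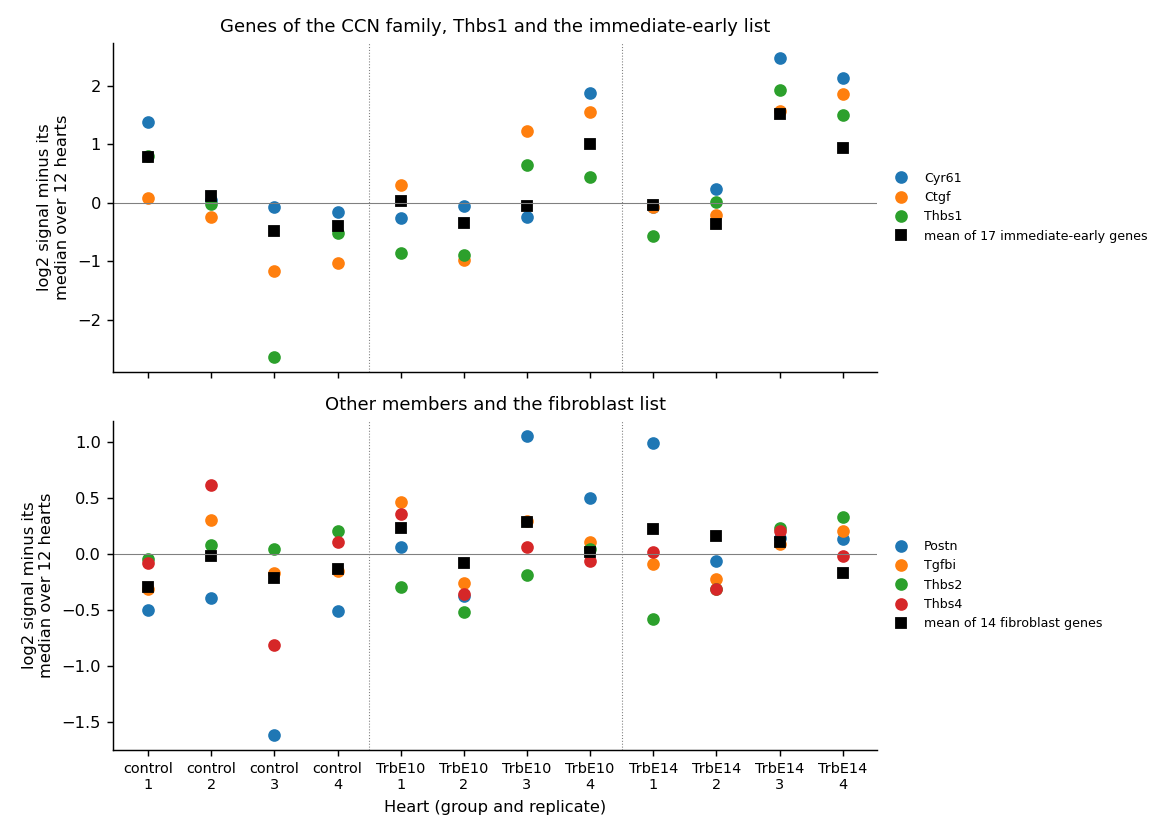
Log2 signal of each gene minus its own median over the 12 hearts (vertical axes), heart by heart. In the upper panel Cyr61, Ctgf, Thbs1 and the mean of 17 immediate-early genes all lie above their medians in control heart 1, TrbE10 heart 4 and TrbE14 hearts 3 and 4. In TrbE10 heart 3 Ctgf (log2 signal 14.00) and Thbs1 (7.20) were also high, while Cyr61 (10.61) and the immediate-early mean (8.34) were not. The lower panel shows Postn, Tgfbi, Thbs2, Thbs4 and the mean of 14 fibroblast genes.

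Genes with the most similar pattern were sought by Pearson's r of the deviations from group means over 12 arrays, among 13311 genes, as a description. Nearest to Ctgf were Pkp4 (0.99), Rassf1 (0.97) and Tinagl1 (0.96), and nearest to Cyr61 were Itpkc (0.97), Hmgb2 (0.97) and Pde7a (0.96). Nearest to Thbs1 were Slc41a2 (0.95), Ptprm (0.93) and Mpdz (0.93), to Thbs2 Rbl2, Amotl2 and 6230400D17Rik (0.95 each), and to Thbs4 Col8a2 (0.96), Crip1 (0.95) and Mtap6 (0.88). For Tgfbi they were Pdgfrl, Igfbp6 and Doc2g (0.91 each). Near to Postn were Cercam (0.93) and the proteoglycan gene Vcan (0.89). Vcan had log2 changes of 0.27 in TrbE10 and 0.35 in TrbE14 hearts (adjusted p = 0.601 and 0.515). All r share the same arrays and the highest were picked out of many.

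Other matricellular genes were called where the 7 were not. Their list, like all lists here, was chosen with earlier results of these data known. Its counts therefore describe the listed genes and are no test of matricellular genes as a class. Over all genes the share called higher was 1.28% for TrbE10 and 0.533% for TrbE14, and the share called lower was 0.649% and 0.128%. Of 22 listed, 14 were measured, and in TrbE10 hearts 4 rose and 1 fell, with a median log2 change of 0.70. In TrbE14 hearts 3 rose and 0 fell, with a median of 0.52. Wisp2 (CCN5), the CCN protein that lacks the C-terminal domain, rose by 2.31 (TrbE10, adjusted p = 3.81e-04) and 2.04 (TrbE14, adjusted p = 0.00123). The calcium-binding matrix protein gene Smoc1 rose by 1.53 and 1.59 (adjusted p = 0.00745 and 0.00896), and Ecm1 by 1.03 and 0.88 (adjusted p = 9.33e-04 and 0.00364). Smoc2, a paralogue of Smoc1, fell in TrbE10 hearts (-0.82, adjusted p = 0.0390), while its value in TrbE14 hearts was -0.87 (adjusted p = 0.0507). Ccdc80, a matrix protein gene named after its values were seen, rose in TrbE10 hearts (0.76, adjusted p = 0.0110), with 0.54 for TrbE14 (adjusted p = 0.0788). Between the mutants 0 of the 14 were called, also at an unadjusted p under 0.05.

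Receptors and upstream pathways were read in the same fit. Over all genes 1.93% were called in TrbE10 and 0.66% in TrbE14 hearts. At an unadjusted p under 0.05 by limma these shares were 16.8% and 13.9%. Among 19 measured receptors of matricellular proteins, Itgav, the integrin alpha v subunit bound by periostin, osteopontin and the CCN proteins, rose in TrbE10 hearts (0.78, adjusted p = 0.0359) and read 0.69 in TrbE14 (adjusted p = 0.0897), and no other was called. Of 12 TGF-beta pathway genes 0 were called by limma in either mutant, with 6 in TrbE10 and 3 in TrbE14 hearts at an unadjusted p under 0.05. The ligand gene Tgfb2 had 0.95 and 0.61 (adjusted p = 0.0819 and 0.313), and the inhibitor Smad7 1.37 and 1.17 (adjusted p = 0.127 and 0.260). Of 17 genes of YAP and SRF signalling, 1 was called, in both mutants: Ankrd1, a muscle stress protein and YAP target like Ctgf and Cyr61, rose by 0.99 and 0.87 (adjusted p = 0.00396 and 0.0135). The list medians were 0.07 and 0.19 for receptors, 0.17 and 0.17 for TGF-beta and 0.07 and 0.07 for YAP and SRF in TrbE10 and TrbE14 hearts.

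**Figure D5:**
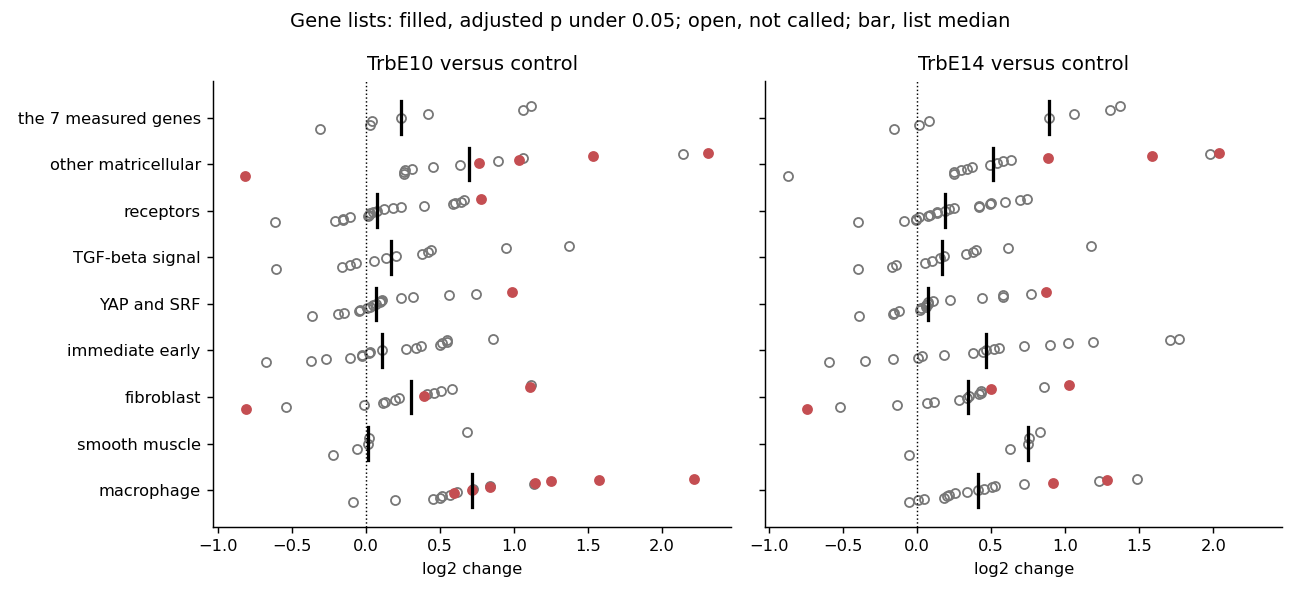
Log2 change of each measured gene (points) by list in TrbE10 versus control and TrbE14 versus control hearts, filled where the adjusted p was under 0.05, with the list median as a bar. The 7 measured genes hold no filled point, while 5 of 14 other matricellular genes are filled in TrbE10 and 3 in TrbE14 hearts.

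Markers of cells that secrete or surround these proteins were read on the same arrays. Beside the marker counts below, 1.28% of all genes were called higher in TrbE10 and 0.533% in TrbE14 hearts. Called lower were 0.649% and 0.128%, and 16.8% and 13.9% passed an unadjusted p under 0.05 by limma in either direction. All 14 fibroblast markers passed the background filter, and their summed signal was 105491 to 115146 units in control, 126091 to 150341 in TrbE10 and 135196 to 159299 in TrbE14 hearts. Their mean log2 signal, in which each gene counts equally, overlapped between groups, at 10.85 to 11.14 in control, 11.07 to 11.44 in TrbE10 and 10.98 to 11.37 in TrbE14 hearts. In each mutant 2 of the 14 rose and 1 fell. The proteoglycan gene Dcn (0.39 and 0.50, adjusted p = 0.0376 and 0.0190) and the transcription factor gene Meox1 (1.11 and 1.02, adjusted p = 0.0144 and 0.0341) rose in both mutants. Fap, the fibroblast activation protein, fell in both (-0.81 and -0.75, adjusted p = 0.00659 and 0.0161). With the mean of this list as a covariate, an alternative added after the data had been seen, Postn had log2 changes of 0.58 and 0.63 (adjusted p = 0.620 and 0.520). Among hearts of 1 group Postn had an r of 0.50 and a rho of 0.55 with it (adjusted p = 0.334 and 0.261 over 12 relations, exact permutation).

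Of 17 measured macrophage markers 7 rose in TrbE10 and 2 in TrbE14 hearts, their summed signal being 19899 to 22303 units in control, 28976 to 34242 in TrbE10 and 26142 to 29780 in TrbE14 hearts. Csf1r (1.14 and 0.92, adjusted p = 1.12e-04 and 6.07e-04) and Trem2 (1.58 and 1.28, adjusted p = 0.00162 and 0.00799) were called in both mutants. Gpnmb (2.22, adjusted p = 0.00572) and Fcgr1 (1.25, adjusted p = 0.0150) were called in TrbE10 hearts, and had 1.48 and 0.45 in TrbE14 hearts (adjusted p = 0.0679 and 0.380). No Gpnmb probe was well above background on more than 4 of the 12 arrays, and no Fcgr1 probe on more than 7. The size of the Gpnmb change thus rests largely on signals at background. With so few arrays above background, Gpnmb can have passed the filter through 1 group only. Its call, 1 of the 7 in TrbE10 hearts, is therefore not taken as support. Ccr2 of this list stayed at background on all 12 arrays. Spp1, which activated macrophages can secrete, stayed below the background limit in the same hearts. The part of these cells in the levels of Postn, Ctgf and Thbs1 was not tested.

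Of 10 endothelial markers Vwf rose in both mutants (1.09 and 1.03, adjusted p = 0.0215 and 0.0451), and Eng, a TGF-beta co-receptor, had 0.71 and 0.72 and was called in TrbE10 hearts (adjusted p = 0.0412 and 0.0642). The summed signal of the 10 was 24798 to 27476 units in control, 30747 to 37976 in TrbE10 and 33056 to 37832 in TrbE14 hearts. Of 8 measured genes of valve, tendon and cartilage, tissues rich in Postn, Thbs4 and Tnc, Cytl1 rose in both (2.07 and 1.73, adjusted p = 0.00250 and 0.0103). The list median was 0.22 and 0.62, with 5 and 6 of the 8 above 0, and Tnmd and Hapln1 stayed at background on all 12. Of 5 smooth muscle genes 0 were called by limma (0 and 3 at an unadjusted p under 0.05), with 0.01 and 0.76 for Tagln and 0.02 and 0.83 for Cnn1. Of 5 platelet genes Pf4 had 0.53 and 0.34 and was called in TrbE10 hearts (adjusted p = 0.0234 and 0.188) while the list median was -0.08 and -0.11, and Gp6 stayed at background on all 12 arrays. Of 3 epicardial and mesothelial genes measured Krt19 rose by 3.97 and 3.55 (adjusted p = 0.00122 and 0.00341). No Krt19 probe was well above background on more than 9 of the 12 arrays, so the size of its change rests in part on signals at background. Wt1 had 1.22 and 0.93 (adjusted p = 0.0780 and 0.246) and Msln 0.97 and 0.89 (adjusted p = 0.697 and 0.718), neither called. Upk3b, Upk1b and Lrrn4 of this list did not pass the filter. Of 4 atrial genes Sln, which regulates the atrial calcium pump, had 3.80 and 3.33 (adjusted p = 0.0177 and 0.0511). Nppa had 2.07 and 1.65 (adjusted p = 0.0860 and 0.240). The atrial light chain genes Myl7 (-0.12 and -0.0006) and Myl4 (-0.09 and 0.09) had adjusted p-values of 0.964 or more. Wt1, Msln, Nppa, Myl7 and Myl4 were named after their values were seen. Of 10 cardiomyocyte genes 0 were called by limma (2 and 1 at an unadjusted p under 0.05). The smallest adjusted p-values in TrbE10 hearts were those of Ryr2 (-0.41, adjusted p = 0.0918) and Atp2a2 (-0.32, adjusted p = 0.120), whose values in TrbE14 hearts were -0.16 and -0.08 (adjusted p = 0.529 and 0.710).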

How the data were processed

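RNA of 12 left ventricles was measured on one-colour arrays. The authors deposited each array's processed signal, a Cy3 intensity after background subtraction within the array by Agilent Feature Extraction 10.5 (per the labels), and log2 values that they had quantile normalized and filtered on background. Here, after removal of control and outlier spots, the log2 intensities were quantile normalized (limma 3.58.1, R 4.3.3), and repeated spots of 1 probe were averaged. Probes well above background on at least 3 of 4 arrays of any group were kept (24593 probes). A limma model with 1 mean per group gave the log2 changes (9 residual and 2.19 prior degrees of freedom), with Benjamini-Hochberg adjustment over all kept probes within each comparison. Every adjusted p comes from limma unless an exact permutation test is named. A gene is its kept probe with the highest mean signal. The study's SAM test was not run here.

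The 9 genes and all lists were chosen with earlier results of these data known, from general knowledge of the pathways and cell types. From each list at most 4 called genes with the largest change were named, or the 2 with the smallest adjusted p where none was called, and for likeness the 3 genes with the highest r, of which 1 is not reported here. Exact permutation tests of pairs used all 13824 orders of 1 gene within groups. The plan adjusted over all pairs of the 9 genes. Spp1 and Tnc were not measured, and Cyr61, though measured, was left out by a rule on its own values, which left 15 pairs. The adjusted p-values of pairs are over these 15 and would be larger over all planned pairs. On data simulated from these arrays for TrbE10 versus control (24586 probes), limma recovered 60% of log2 changes of 1 and 88% of log2 changes of 2, with 7 false calls among 155. These rates are for probes in general and were not obtained for the 7 genes. The SD within groups was 0.21 for the median gene, against 1.18 for Thbs1, 1.04 for Cyr61, 0.96 for Ctgf and 0.56 for Postn. The rates therefore do not tell how often changes of that size would be called in these genes. Alternatives were the authors' log2 values, 75th percentile scaling, normexp (offset 50), no filter or one on 9 of 12 arrays, 2-group fits, the replicate number as a block, Y-linked signal as a covariate and each array left out. The immediate-early and the fibroblast list mean as covariates were added after seeing the data. Correlations of the genes with these list means were not in the plan. The number of arrays limits the precision, and p-values measure the spread between mice. Promoter sequences are from RefSeq (GRCm38.p6), and positions of probes are those of the array files (mm9). Figures used matplotlib 3.10.9 under Python 3.11.15.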

Additional observations from a re-analysis of the deposited data

Results flagged for a closer look

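Of 21 groups of 4 hearts (7 genes in 3 groups), 3 held a heart that stood apart from its group by Dixon's test, where chance gives about 1 in 20. Cyr61 in control heart 1 was 12.23 on the log2 scale against 10.70 to 10.91 in the other controls, and in TrbE10 heart 4 it was 12.72 against 10.60 to 10.80. Postn in control heart 3 was 5.55 against 6.65 to 6.77 in the other controls.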

How the results depend on the processing

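In every setting run 0 of the 7 genes were called in any comparison, the smallest adjusted p being 0.0870 (Postn in TrbE10 hearts, without TrbE10 replicate 2). Of the log2 changes of single genes under alternatives, 425 kept their direction, 37 turned it and none crossed the threshold. Cyr61 in TrbE10 hearts turned to -0.0325 (75th percentile), -0.32 (Y-linked covariate) and -0.20 (immediate-early covariate), and ranged from -0.49 to 0.38 with single arrays left out. Thbs4 turned to -0.28 in TrbE10 hearts (fibroblast covariate), and in TrbE14 hearts to -0.0147 (75th percentile), -0.0460 (normexp), -0.0920 (immediate-early covariate) and -0.27 (fibroblast covariate), ranging from -0.22 to 0.26 and from -0.24 to 0.23 with arrays left out. Tgfbi in TrbE14 hearts turned to -0.0895 (fibroblast covariate). Between the mutants Ctgf turned to 0.17 (immediate-early covariate), Postn to -0.0033 (75th percentile), -0.0726 (normexp), -0.0873 (Y-linked covariate) and -0.0524 (fibroblast covariate), and Thbs4 to -0.0251 (Y-linked covariate) and -0.0138 (fibroblast covariate). With arrays left out, Thbs1 in TrbE10 hearts ranged from -0.26 to 0.88, Thbs2 in TrbE14 hearts from -0.29 to 0.0127, and between the mutants Ctgf from -0.59 to 0.25, Postn from -0.24 to 0.24 and Thbs4 from -0.0937 to 0.15. The cause was not tested. Pairs called fell from 1 to 0 under the 75th percentile, normexp and the authors' values, and ranged from 0 to 2 with arrays left out.

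Same-numbered hearts did not deviate together in every pair (r from -0.24 to 0.48, over 0.1 in 3 of 12 pairs, all between TrbE10 and TrbE14, where r was 0.37, 0.31, -0.0083 and 0.48), so the numbers were not taken to pair them. With the replicate number as a block 0 of the 7 genes were called, with smallest adjusted p-values of 0.222 and 0.275 for TrbE10 and TrbE14 versus control and 0.884 between the mutants. Calls over all genes moved from 348 to 257 and stayed at 119. Without a filter they were 164 and 94, with the fibroblast covariate 45 and 36, and with arrays left out 139 to 584 and 67 to 159. In the lists 22 counts of called genes moved by over 1.5 times: other matricellular genes from 5 to 8 (authors' values, TrbE10) and from 3 to 5 (normexp, TrbE14), fibroblast genes from 3 to 5 (authors' values, TrbE10) and to 1 (replicate block, TrbE14), endothelial genes from 2 to 0 in TrbE10 and from 1 to 0 or 3 in TrbE14 hearts, and receptor, YAP and SRF, platelet and atrial genes by 1 each. A slide block could not be fitted for TrbE10, and each measured gene had 1 kept probe, so no other probe could be tried.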
